A study of Mus musculus with 17 samples.

Results

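Cholesterol synthesis, uptake and efflux genes were described here in mouse ovarian follicles cultured with an inhibitor of the EGF receptor. The module held 34 genes, chosen by symbol from a list of gene names, out of 25198 genes in the deposited table. It comprised 8 enzymes of the mevalonate and isoprenoid steps, 12 enzymes from squalene to cholesterol, 5 genes of sterol sensing, 4 genes of lysosomal release and intracellular transport, 4 genes of efflux and its nuclear receptors, and 1 gene of cholesterol storage. All 34 were found in the table, and 32 passed the filter on low counts; Abcg1 and Nr1h3 did not.

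The libraries came from antral follicles of CD1 mice aged 16 days, grown for 8 days in eIVFG, an encapsulated culture in which a follicle develops outside the ovary. Tyrphostin libraries were given 10 µM Tyrphostin-AG1478 (the series title spells it AG4178), an inhibitor of the EGF receptor kinase, in DMSO together with hCG, the hormone that starts ovulation, for 4 h; the same text is attached to Control libraries, so what Control follicles received is not stated. Bulk RNA-seq by the full-length Smart-Seq2 method gave 11 Control and 6 Tyrphostin libraries of 3 pooled follicles each, as 6 Control with 3 Tyrphostin in batch 1 and 5 Control with 3 Tyrphostin in batch 2. Control libraries fell into 5 numbered sets, and nothing says that libraries of 1 set or group came from separate animals or cultures, and p-values then reflect only the spread among libraries, which may be technical.

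Library totals ran from 1820545 to 8291024 counts. The EGF receptor response genes Dusp6, Egr1 and Ptgs2, taken as a check of the treatment label, had log2 fold changes of -2.05, -1.71 and -2.40, with 6 of 6 Tyrphostin libraries below all Control libraries for each. Control libraries themselves were lower in batch 2 than in batch 1 for Egr1 (log2 -1.39 ± 0.22, SE) and Ptgs2 (-1.63 ± 0.24), while Dusp6 was at -0.03 ± 0.22. Granulosa markers led the libraries, with a summed level of 78552 to 115038 CPM (counts scaled to a common library total after TMM adjustment), although Amh was at 0 in 12 of 17 libraries and Foxl2 in 3. Theca and stroma markers summed to 269 to 3091 CPM, macrophage and other immune markers to 19.4 to 890 CPM, oocyte markers to 24.4 to 213 CPM and endothelial markers to 8.54 to 88.7 CPM. Control 7 stood apart by its mitochondrially encoded transcripts, at 0.175% of counts against 0.781% to 2.83% in the other 16 libraries. In such bulk samples, fewer cells of a type and less RNA per cell cannot be told apart.

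Cells make cholesterol from acetyl-CoA through mevalonate, squalene and lanosterol, and take it up in lipoproteins whose cholesteryl esters are split in lysosomes. When sterol in the endoplasmic reticulum is low, SCAP carries the SREBP transcription factors away from the INSIG retention proteins to be cleaved, and the released factors switch on synthesis genes, with NF-Y and Sp1 often bound beside them. When oxysterols are high, LXR receptors switch on efflux transporters. In the ovary, cholesterol is the precursor of progesterone, which granulosa cells make in growing amounts after the ovulatory signal.

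The promoters of the members on which the results turn are shown first, because Dhcr7, Acat2 and Abca1 were the members called over both batches and Insig1 and Srebf2 belong to the sensing of sterol. The sequences are the 250 bases upstream of a transcript start from RefSeq (build GRCm38.p6), in which 28 of 34 members matched; Fdps, Npc1, Abcg1, Fdft1, Stard4 and Sqle did not. Each is written 5′ to 3′ on the strand of the gene. Capitals mark matches, on either strand, to 5 letter patterns: TCACNCCA (of sterol regulatory element type), CCAAT (bound by NF-Y; ATTGG on the other strand), GGGCGG (GC box, bound by Sp1; CCGCCC on the other strand), CACGTG (E-box) and the pattern GGTNA, 5 bases of any kind and GGTNA again (a direct repeat of LXR element type). No printed matches overlapped. Dhcr7 (chr7:143829964-143830213, plus strand) encodes the last enzyme of one branch of cholesterol synthesis, Acat2 (chr17:12960726-12960975, minus strand) the cytosolic thiolase that makes acetoacetyl-CoA, Insig1 (chr5:28071162-28071411, plus strand) an SREBP retention protein, Srebf2 (chr15:82147019-82147268, plus strand) the SREBP2 precursor, and Abca1 (chr4:53159896-53160145, minus strand) the main exporter of cholesterol to apolipoprotein A-I.
Dhcr7: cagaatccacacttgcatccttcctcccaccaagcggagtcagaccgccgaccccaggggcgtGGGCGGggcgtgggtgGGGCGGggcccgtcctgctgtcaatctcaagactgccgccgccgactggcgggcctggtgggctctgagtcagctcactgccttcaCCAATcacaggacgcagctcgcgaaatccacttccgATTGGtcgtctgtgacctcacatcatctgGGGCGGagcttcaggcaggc
Acat2: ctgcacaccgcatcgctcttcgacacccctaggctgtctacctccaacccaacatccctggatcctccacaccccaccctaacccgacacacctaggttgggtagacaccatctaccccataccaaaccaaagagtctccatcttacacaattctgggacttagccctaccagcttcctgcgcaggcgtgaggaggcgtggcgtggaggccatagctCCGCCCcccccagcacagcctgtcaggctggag
Insig1: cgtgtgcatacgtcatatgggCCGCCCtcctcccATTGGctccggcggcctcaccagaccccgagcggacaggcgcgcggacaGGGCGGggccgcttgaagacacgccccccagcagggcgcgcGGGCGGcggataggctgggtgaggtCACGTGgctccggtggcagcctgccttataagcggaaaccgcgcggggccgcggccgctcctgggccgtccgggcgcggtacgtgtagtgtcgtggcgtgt
Srebf2: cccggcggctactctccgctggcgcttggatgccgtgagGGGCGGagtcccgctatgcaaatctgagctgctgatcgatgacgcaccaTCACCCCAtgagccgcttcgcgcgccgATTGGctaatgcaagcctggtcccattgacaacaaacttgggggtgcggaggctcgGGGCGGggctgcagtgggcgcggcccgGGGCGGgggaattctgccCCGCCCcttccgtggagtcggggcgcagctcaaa
Abca1: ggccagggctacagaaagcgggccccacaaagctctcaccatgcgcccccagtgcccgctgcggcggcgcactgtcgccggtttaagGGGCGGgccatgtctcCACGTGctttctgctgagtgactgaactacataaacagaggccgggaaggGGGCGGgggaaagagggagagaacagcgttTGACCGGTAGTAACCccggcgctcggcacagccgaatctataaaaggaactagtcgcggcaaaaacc

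In the Dhcr7 window, a CCAAT box lay at -85 to -81 and a reverse one at -49 to -45 relative to the start, with GC boxes at -187, -171 and -20. RefSeq has 3 starts for Dhcr7, and gene counts do not show which start was used. The one shown had the most GENCODE transcripts beginning within 50 bases (4 of 13, against 3 and 0). The window of the start with 3 transcripts held 0 CCAAT boxes and 1 GC box, and that of the start with 0 transcripts held neither. The CCAAT boxes described for Dhcr7, and its place among the enzymes counted below as holding one, thus depend on the start chosen. The Acat2 window held 1 GC box, at -33 to -28, and no CCAAT box. Insig1 had a reverse CCAAT box at -216 to -212 and an E-box at -101 to -96. Srebf2 was the only one of these 5 with the sterol regulatory element pattern, TCACCCCA at -162 to -155. Abca1 was the only one of these 5 with the direct repeat, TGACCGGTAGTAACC at -67 to -53 as read on the gene's strand, and it held no CCAAT box.

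The CCAAT box was present in 22 of 28 members (78.6%), against 33.8% of all 32851 promoters and 36.4% of the 7602 tested genes with a promoter. It was absent in Acat2, Insig2, Scap, Abca1, Nr1h2 and Nr1h3, so that 16 of 17 synthesis enzymes in the table held it (94.1%). GC boxes were present in 20 members (71.4%), against 32.7% of all promoters and 63% of tested genes. The sterol regulatory element pattern was found in 3 members (10.7%; Hmgcs1, Msmo1 and Srebf2), against 3.67% of all promoters and 3.14% of tested genes. E-boxes were in 4 members (14.3%, against 6.02% of all promoters and 8.93% of tested genes), and the direct repeat in Abca1 alone (3.57% of members, against 0.621% of all promoters and 0.316% of tested genes). These letter matches are descriptions of the windows and not measured binding.

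In the fit over both batches, Tyrphostin libraries had higher Dhcr7 and Acat2 and lower Abca1. These were the 3 of 32 members that passed an adjusted p under 0.05 (9.38%), where 10.6% of the 9603 genes tested passed; 2 were higher, against 4.35% of all genes, and 1 was lower, against 6.25%. The share of members called was thus near the background. Of the 32 members, 23 had a positive and 9 a negative log2 fold change, with a median of 0.23 beside 5.4e-05 for all genes tested. At an unadjusted p under 0.05, 9 members passed, 8 of them higher (28.1%, against 23.7% of all genes).

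**Figure D1:**
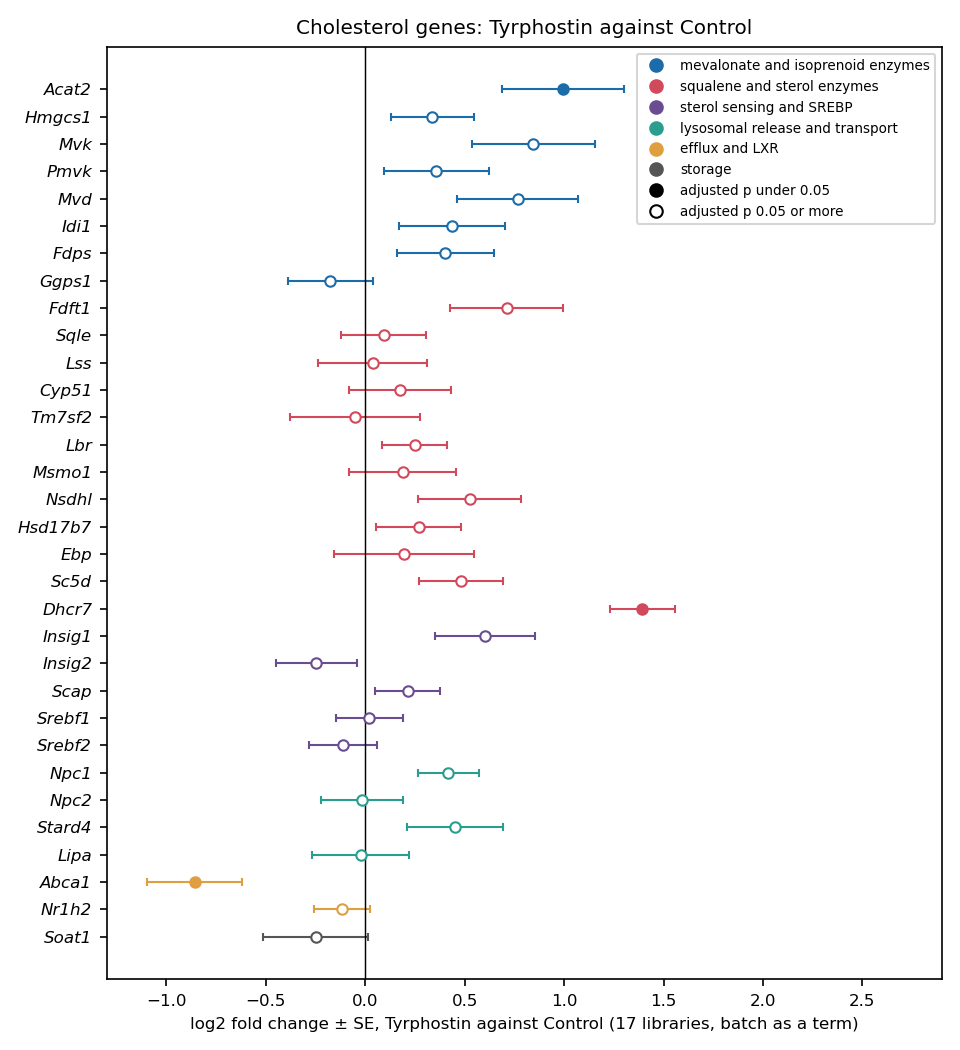
Log2 fold change of each of the 32 tested members between Tyrphostin and Control libraries, fitted over 17 libraries with batch as a term; points are estimates, bars are 1 standard error, colours are roles and filled points have an adjusted p under 0.05 (edgeR, Benjamini-Hochberg). Dhcr7 at 1.39 and Acat2 at 0.99 lie to the right and Abca1 at -0.86 to the left, and most synthesis enzymes lie to the right of 0 without passing.

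Dhcr7 (ENSMUSG00000058454; GRCm38 chr7:143823145-143848410, plus strand) encodes 7-dehydrocholesterol reductase, which also consumes the precursor of vitamin D. Its level was 469, 373 and 315 CPM in the Tyrphostin libraries of batch 1 and 422, 404 and 405 CPM in those of batch 2. In Control libraries it ran from 87.2 to 146 CPM in batch 1 (median 118) and from 160 to 255 CPM in batch 2 (median 187). All 6 Tyrphostin libraries lay above all 11 Control libraries, a separation that 0.51% of the genes tested showed in this direction and that no other tested member showed. The means were 398 ± 51.2 (SD, n = 6) and 156 ± 52.4 CPM (SD, n = 11), and the fold change was 2.63 (log2 1.39 ± 0.16, SE; edgeR quasi-likelihood test with Benjamini-Hochberg adjustment, adjusted p = 5.43e-06). Dhcr7 passed in 17 of 17 fits that left out 1 library and under all 11 other settings run. These settings include a replicate block that crosses batches, whose treatment term also holds the batch difference.

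Acat2 (ENSMUSG00000023832; chr17:12942890-12960747, minus strand) was at 312, 119 and 181 CPM in the Tyrphostin libraries of batch 1 and at 126, 171 and 122 CPM in those of batch 2. Control libraries ran from 40.0 to 102 CPM in batch 1 (median 55.9) and from 74.6 to 217 CPM in batch 2 (median 139). The groups overlapped: in batch 1 all 3 Tyrphostin libraries were above all Control libraries, whereas in batch 2 they lay within the Control range. The log2 fold change of Acat2 was 1.74 ± 0.30 (SE) in batch 1 and 0.08 ± 0.34 in batch 2. The fold change over both batches was 1.99 (log2 0.99 ± 0.31, SE; edgeR adjusted p = 0.0438). This call was lost in 10 of 17 fits without 1 library, namely without Control 2, 3, 4, 5, 6, 10 or 11 or Tyrphostin 1, 2 or 3 (adjusted p up to 0.157, without Tyrphostin 1). Acat3, a closely related gene beside Acat2 on the chromosome and named here after its values were seen, had a log2 fold change of -0.26 ± 0.16 (edgeR adjusted p = 0.361), and how reads shared by the pair were counted is not stated.

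Abca1 (ENSMUSG00000015243; chr4:53030787-53159895, minus strand) was at 101, 71.0 and 95.0 CPM in the Tyrphostin libraries of batch 1 and at 139, 233 and 55.8 CPM in those of batch 2. Control libraries ran from 202 to 243 CPM in batch 1 (median 219) and from 119 to 241 CPM in batch 2 (median 190). Tyrphostin 1, 2, 3 and 6 were below all Control libraries, and Tyrphostin 5 was near the top of the Control range. Tyrphostin 5 also had the highest summed theca and stroma markers (3091 CPM) and immune markers (890 CPM) of the 17 libraries, and the part of these cells in its Abca1 level was not tested. The fold change was 0.551 (log2 -0.86 ± 0.24, SE; edgeR adjusted p = 0.0227), and the call was lost without Tyrphostin 1, 2, 3 or 6 (adjusted p 0.0574 to 0.0772). With Control libraries summed by set, Dhcr7 remained past the threshold, whereas Abca1 (adjusted p = 0.0908) and Acat2 (adjusted p = 0.245) did not. Of the 11 other settings run, Abca1 passed in 8 and Acat2 in 7. The passes of both genes include the replicate block that crosses batches, whose treatment term also holds the batch difference.

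Within batch 1, more genes of the synthesis pathway passed. There 8 of 32 members passed (25%), where 6.73% of 9423 genes did: 7 were higher (Dhcr7, Acat2, Fdft1, Mvd, Nsdhl, Mvk and Insig1; 2.94% of all genes) and Abca1 was lower (3.79%). The median of the members was 0.44, beside 0.02 for all genes tested. For each of the 7 higher genes, all 3 Tyrphostin libraries lay above all 6 Control libraries of the batch, as 5.04% of all genes did, and for Abca1 all 3 lay below, as 6.46% did. At an unadjusted p under 0.05, 13 members passed in batch 1 (40.6%, against 21.2% of all genes). In batch 2, 0 of 32 members passed, where 0.621% of 9830 genes did, with a median of -0.03 and with 2 members, Dhcr7 and Npc1, at an unadjusted p under 0.05 (edgeR; DESeq2 called 1 member, Dhcr7). When Control libraries of batch 1 were summed by set, 2 members passed there, Dhcr7 and Abca1, where 2.25% of 10604 genes did. Without Tyrphostin 1, 5 passed, where 5.05% of 9816 genes did. No member's effect differed between batches at the adjusted threshold (edgeR interaction term, adjusted p = 1.00 for each).

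**Figure D2:**
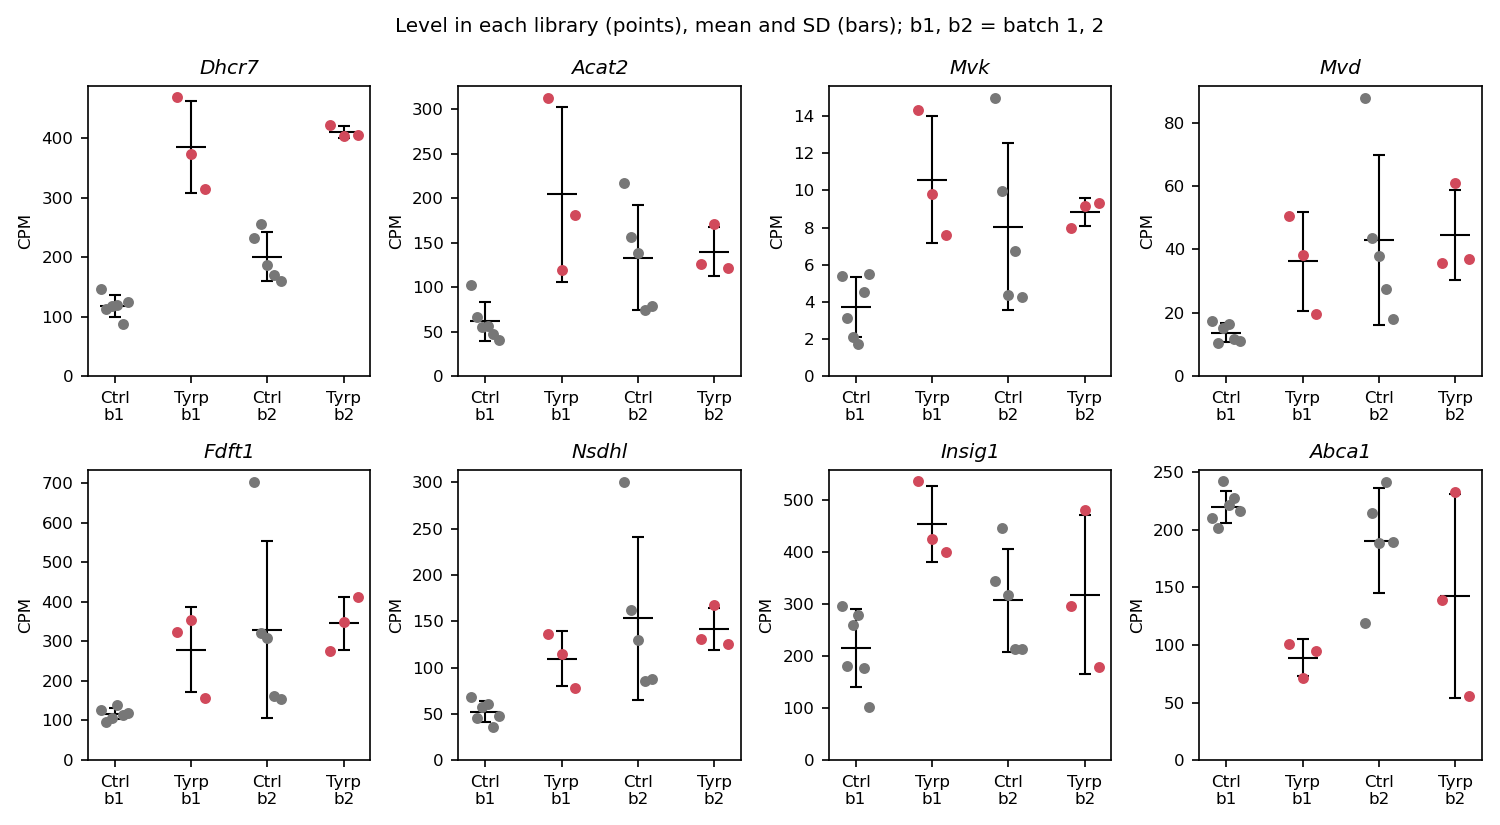
Level of the 8 members called within batch 1, in CPM, in every library (points), with the group mean and SD (bars), for Control (Ctrl) and Tyrphostin (Tyrp) libraries of batch 1 (b1) and batch 2 (b2). Dhcr7 is higher in the Tyrphostin libraries of both batches, whereas Fdft1, Mvd and Nsdhl show a low Control group in batch 1 and a wide Control group in batch 2 with Control 7 at its top.

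Of the mevalonate enzymes, Mvk and Mvd passed within batch 1 and not over both batches. Mvk, mevalonate kinase, was at 14.3, 9.79 and 7.61 CPM in the Tyrphostin libraries of batch 1, above its Control range of 1.74 to 5.47 CPM. In batch 2 it was at 7.96, 9.16 and 9.33 CPM, within a Control range of 4.27 to 14.96 CPM. Its log2 fold change was 1.54 ± 0.36 in batch 1 (edgeR adjusted p = 0.0136), 0.12 ± 0.40 in batch 2 and 0.84 ± 0.31 over both (adjusted p = 0.0864). Mvd, the decarboxylase that ends the mevalonate steps, was at 50.5, 38.2 and 19.7 CPM against 10.5 to 17.3 CPM in batch 1. In batch 2 it was at 35.7, 60.9 and 36.9 CPM against 18.1 to 87.7 CPM. The Tyrphostin libraries thus stood clear of Control for Mvd in batch 1 and lay inside the Control range in batch 2, with log2 fold changes of 1.40 ± 0.28 (edgeR adjusted p = 0.00426) and 0.06 ± 0.42.

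Hmgcs1, the synthase before the mevalonate step, was among the most abundant members. It was at 1958, 2018 and 1239 CPM in the Tyrphostin libraries of batch 1, against 761 to 1510 CPM in Control (median 1127), and at 2097, 2399 and 1966 CPM in batch 2, against 1226 to 3204 CPM (median 2401). The ranges overlapped in both batches, and the log2 fold change over both was 0.34 ± 0.21 (edgeR adjusted p = 0.349). Of the 8 mevalonate and isoprenoid enzymes, 7 had a positive value in the fit over both batches and 1 passed, with a median of 0.42. Taken by batch, 7 were positive in batch 1 (median 0.80) and 5 in batch 2 (median 0.03). Over both batches Ggps1, which makes geranylgeranyl diphosphate, was at -0.18. Pmvk, Idi1 and Fdps had values of 0.36, 0.44 and 0.40. Fdps is counted over exons of which 26.7% overlap another gene on the same strand in GENCODE M21, so its reads are uncertain. The same limit holds for Tm7sf2, with 12.1% on the same strand. Hmgcs1 and Scap overlap other genes on the opposite strand over 12.1% and 13.2%.

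Among the 12 enzymes from squalene to cholesterol, 11 had a positive log2 fold change in the fit over both batches, with a median of 0.22. Dhcr7 alone passed there. Taken by batch, 12 were positive in batch 1 (median 0.48) and 5 in batch 2 (median -0.09). Fdft1, squalene synthase, was at 325, 355 and 156 CPM in the Tyrphostin libraries of batch 1 against 97.2 to 138 CPM in Control. In batch 2 it was at 276, 349 and 411 CPM against 155 to 703 CPM. The groups were apart in batch 1 (log2 fold change 1.25 ± 0.24; edgeR adjusted p = 0.00365) and overlapped in batch 2 (0.08 ± 0.44), where Control 7 was the highest library. The exons of Fdft1 overlap those of Ctsb on the opposite strand over 18.3% of their length, and whether counting used strand is not stated.

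Nsdhl, which takes part in removing methyl groups from the sterol ring, was at 136, 115 and 77.8 CPM against 36.1 to 67.9 CPM in batch 1. In batch 2 it was at 131, 167 and 126 CPM against 85.5 to 300.3 CPM. Its log2 fold changes were 1.07 ± 0.24 (edgeR adjusted p = 0.00898) and -0.11 ± 0.38. Sc5d, the desaturase whose product Dhcr7 reduces, was at 272, 140 and 126 CPM against 65.1 to 170 CPM in batch 1 and at 190, 173 and 194 CPM against 157 to 197 CPM in batch 2. The Sc5d groups overlapped in both batches, and its log2 fold change over both was 0.48 ± 0.21 (edgeR adjusted p = 0.160). Of the other sterol reductases of the module, which act earlier in the pathway, Lbr was at 0.25 ± 0.16 and Tm7sf2 at -0.05 ± 0.33. The remaining enzymes Sqle, Lss, Cyp51, Msmo1, Hsd17b7 and Ebp lay between 0.04 (Lss) and 0.27 (Hsd17b7), and none passed.

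For the genes that sense sterol the median over both batches was 0.02 (log2), with 0 of 5 past the adjusted threshold and 1 of 5 at an unadjusted p under 0.05 (Insig1). Insig1 was at 537, 426 and 400 CPM in the Tyrphostin libraries of batch 1, all above its Control range of 102 to 298 CPM. In batch 2 it was at 296, 481 and 178 CPM, from below to above a Control range of 213 to 448 CPM. The log2 fold change of Insig1 was 1.07 ± 0.28 in batch 1 (edgeR adjusted p = 0.0241) and 0.05 ± 0.35 in batch 2. Its paralog Insig2, which is not driven by SREBP in the same way, was at 43.3, 33.7 and 23.4 CPM in batch 1 (Control 20.3 to 45.4) and at 44.9, 59.6 and 27.0 CPM in batch 2 (Control 39.5 to 81.4). Insig2 overlapped between groups, at -0.25 ± 0.20 (edgeR adjusted p = 0.511).

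The SREBP transcripts did not pass. Srebf2 was at 320, 156 and 251 CPM in the Tyrphostin libraries of batch 1 (Control 202 to 308) and at 169, 180 and 131 CPM in batch 2 (Control 134 to 216), with a log2 fold change of -0.11 ± 0.17 (edgeR adjusted p = 0.754). Srebf1 was at 67.9, 51.7 and 65.0 CPM in batch 1 (Control 44.6 to 64.0) and at 45.5, 50.7 and 50.9 CPM in batch 2 (Control 26.5 to 67.5), with a value of 0.02 ± 0.17 (adjusted p = 0.963). Both overlapped with Control in both batches. Scap, the escort of SREBP, was at 124, 125 and 118 CPM in batch 1 (Control 67.9 to 146) and at 128, 142 and 164 CPM in batch 2 (Control 107 to 176), with a value of 0.21 ± 0.16 (adjusted p = 0.471). Cleavage of SREBP proteins is not visible in transcript counts.

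Among the genes of lysosomal release and transport, 0 of 4 passed and the median was 0.20. Npc1, the membrane protein that moves cholesterol out of lysosomes, was at 21.4, 18.2 and 23.8 CPM in the Tyrphostin libraries of batch 1 (Control 13.1 to 20.3) and at 24.8, 23.4 and 25.9 CPM in batch 2 (Control 13.8 to 22.1). All 3 Tyrphostin libraries of batch 2 were above the Control libraries of that batch, as 4.21% of all genes were (no member was below, as 4.89% of genes were), and 4 of 6 were above all Control libraries. The log2 fold change of Npc1 was 0.42 ± 0.15 (edgeR adjusted p = 0.0892). Stard4, a soluble sterol carrier, was at 111, 60.6 and 55.0 CPM in batch 1 (Control 21.3 to 58.5) and at 56.0, 79.5 and 44.8 CPM in batch 2 (Control 34.4 to 86.5), with overlapping groups and a value of 0.45 ± 0.24 (adjusted p = 0.264). Npc2, the soluble partner of Npc1, and Lipa, the lysosomal lipase, were both at -0.02.

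Of the other efflux genes, Nr1h2, which encodes LXR beta, was at -0.12 ± 0.14 and did not pass. Nr1h3, which encodes LXR alpha, ran from 0 to 1.84 CPM and Abcg1, an exporter to HDL, from 0 to 4.85 CPM; neither was tested. A count of 3 in 1 library stands for 0.336 to 1.64 CPM, so most of these values lie at that floor. Soat1, which esterifies cholesterol for storage, had the highest Control median of the members per exon length, 505 CPM per kb, with a Tyrphostin median of 413. Cyp51 (318 and 358) and Hmgcs1 (268 and 434) came next in Control, and Hmgcs1 was the highest in Tyrphostin libraries, while Mvk (1.69 and 3.46) and Npc1 (1.43 and 2.09) were among the lowest tested. Soat1 was at 2404, 3583 and 2856 CPM in the Tyrphostin libraries of batch 1 (Control 2196 to 6632) and at 4508, 8553 and 6252 CPM in batch 2 (Control 3754 to 11279). Its log2 fold change was -0.25 ± 0.26 (edgeR adjusted p = 0.628).

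The Control libraries themselves differed between batches in enzymes of synthesis. Compared with batch 1, Control libraries of batch 2 had 9 of 28 tested members past the threshold (32.1%), where 14% of 6680 genes passed, and all 9 were synthesis enzymes at higher levels (7.26% of all genes were higher and 6.77% lower). At an unadjusted p under 0.05, 16 members passed (57.1%, against 28.9% of all genes). The 9 were Lss (log2 difference 1.85 ± 0.35), Mvd (1.65 ± 0.32), Hsd17b7 (1.62 ± 0.26), Nsdhl (1.56 ± 0.28), Fdft1 (1.5003 ± 0.31), Acat2 (1.13 ± 0.28), Hmgcs1 (0.97 ± 0.25), Sc5d (0.88 ± 0.23) and Dhcr7 (0.80 ± 0.18). All 16 tested synthesis enzymes had a positive value, with a median of 0.88 beside 0.04 for all genes. With Control libraries summed by set, 1 of 32 members passed (Hsd17b7), where 1.09% of genes did.

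**Figure D3:**
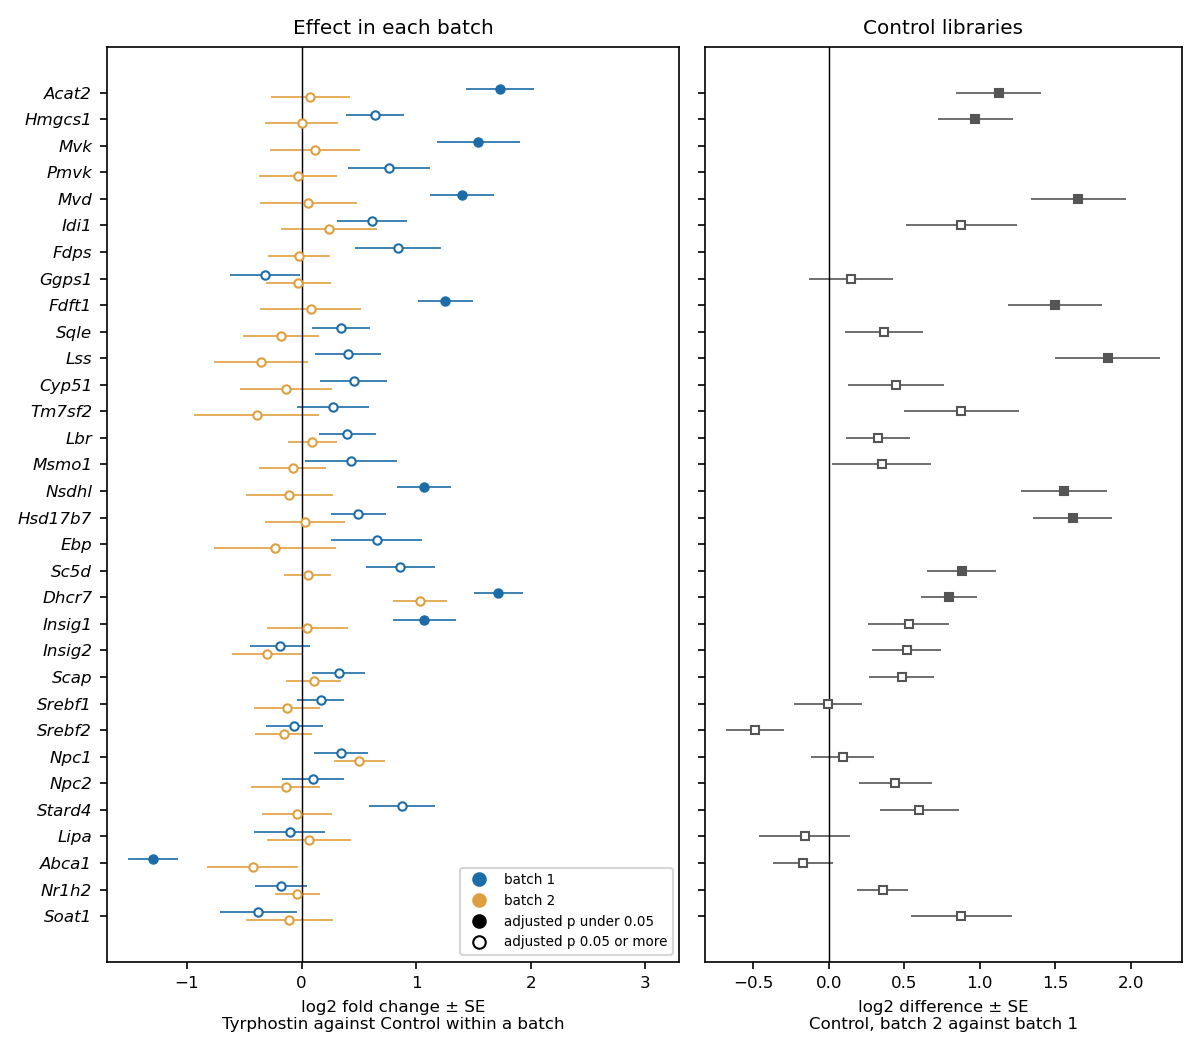
Left, log2 fold change of the 32 tested members between Tyrphostin and Control libraries within batch 1 (blue) and batch 2 (orange); right, log2 difference between the Control libraries of batch 2 and batch 1 for the 28 members tested there. Bars are 1 standard error and filled symbols have an adjusted p under 0.05 (edgeR). The right panel uses the Control libraries of both fits on the left, which share none with each other. The batch 1 values lie to the right of the batch 2 values for most enzymes.

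The difference between the batches in the treatment effect itself was tested as an interaction, with 0 of 32 members and 0 of 9603 genes past the adjusted threshold. At an unadjusted p under 0.05, 7 members passed (21.9%, against 3.56% of all genes), all with a smaller effect in batch 2: Acat2, Nsdhl, Mvk, Mvd, Fdft1, Dhcr7 and Insig1. The lowest p was that of Acat2, at -1.66 ± 0.50 on the log2 scale (unadjusted p = 0.00291; edgeR adjusted p = 1.00), and the value for Dhcr7 was -0.68 ± 0.31. Abca1 had the opposite sign, 0.88 ± 0.43 (unadjusted p = 0.0526). The Control difference and the interaction use the Control libraries of both within-batch fits, so neither is independent of the within-batch values. The fits within batch 1 and within batch 2 share no library with each other. All are given side by side.

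Summed levels show where each group of libraries lay. The 8 mevalonate and isoprenoid enzymes summed to 1238 ± 275 CPM (SD, n = 6) in Control and 2045 ± 485 (n = 3) in Tyrphostin libraries of batch 1, and to 2425 ± 873 (n = 5) and 2429 ± 276 CPM (n = 3) in batch 2. The 12 squalene and sterol enzymes summed to 3411 ± 983 and 4987 ± 1512 CPM in batch 1 and to 4946 ± 1814 and 4798 ± 440 CPM in batch 2. Batch 1 Control libraries were thus the group with the lowest mean for both sets of enzymes, and the groups overlapped. These sums follow few genes: Hmgcs1 made up 89.6% of the mevalonate sum in Control and 87.0% in Tyrphostin libraries, and Cyp51, Msmo1 and Sqle together made up 80.4% and 74.8% of the sterol sum. Control 7 had the highest summed mevalonate level of all 17 libraries, 3591 CPM. Without Control 7, 6 members were higher over both batches (Fdft1, Mvd, Mvk and Nsdhl joined Dhcr7 and Acat2), where 1314 of 9552 genes passed and 593 of them were higher, against 1018 and 418 with all libraries. Within batch 2, Dhcr7 then passed, where 2.26% of genes did.

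**Figure D4:**
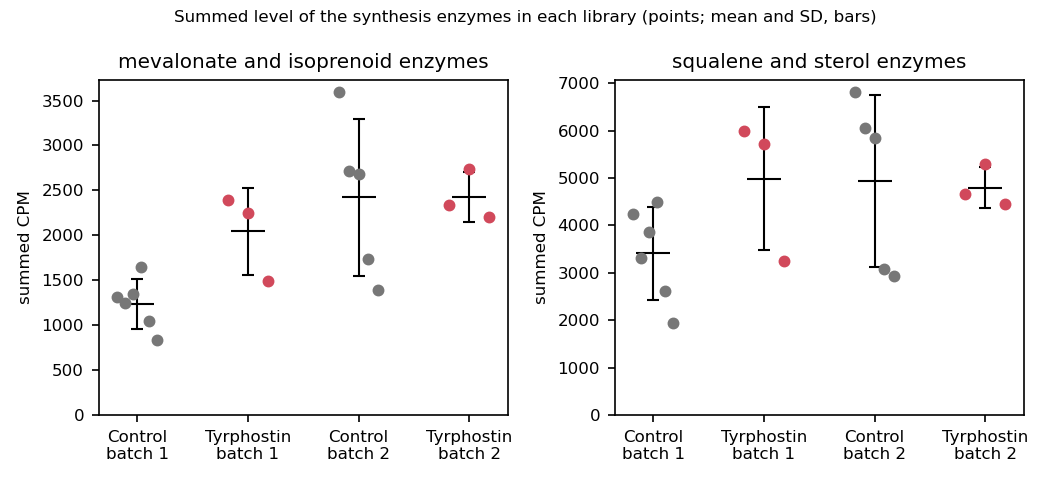
Summed level in CPM of the 8 mevalonate and isoprenoid enzymes (left) and the 12 squalene and sterol enzymes (right) in every library (points), with mean and SD (bars), by group and batch. Control libraries of batch 1 have the lowest mean in both panels and Control libraries of batch 2 have the widest spread.

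Levels of cell type markers also differed between batches and groups. Theca and stroma markers had a negative log2 fold change with Tyrphostin for 8 of 9 tested markers in batch 1 (median -0.97). There 2 passed the threshold, both lower, where 3.79% of all genes did. In batch 2 the markers had a positive value for 9 of 9 (median 0.57), and 0 passed, where 0.621% of all genes did. In Control libraries of batch 2 against batch 1 their median was 1.26, over 8 tested. Of these markers, 3 passed higher (7.26% of all genes) and 1 lower (6.77%). Summed, they ran from 269 to 768 CPM in Control and 275 to 423 CPM in Tyrphostin libraries of batch 1, and from 444 to 2167 and 822 to 3091 CPM in batch 2; of the defining markers, Tcf21 was at 0 in 7 of 17 libraries. Macrophage and other immune markers, of which 2 of 10 were tested, summed to 19.4 to 65.8 CPM in Control libraries of batch 1 and 56.4 to 478 CPM in those of batch 2, with Ptprc at 0 in 5 libraries. Granulosa markers had 5 of 8 past the threshold and higher over both batches (median 1.03), where 4.35% of all genes were. A negative value was seen for 2 of the 8 (lowest -0.07). Nr5a2, Hsd17b1 and Cyp19a1 averaged 44.7, 54.3 and 159 CPM in Control and 202, 327 and 777 CPM in Tyrphostin libraries. The most abundant, Inha, Inhba and Gja1, averaged 44568, 24329 and 25489 CPM in Control and 43006, 23043 and 31953 CPM in Tyrphostin libraries. Summed, granulosa markers were at 94678 ± 6397 CPM (SD, n = 11) in Control and 99388 ± 12601 CPM (n = 6) in Tyrphostin libraries. The part of these markers in the enzyme levels was not tested.

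Other genes of sterol and lipid control, from a list of 47 with 41 tested, had 4 past the threshold over both batches (2 higher, 2 lower), a share near the 10.6% of all genes that passed, and a median log2 fold change of 0.18. The largest was Ch25h (ENSMUSG00000050370; chr19:34473778-34475164, minus strand), cholesterol 25-hydroxylase, whose oxysterol product both activates LXR and retains SREBP in the endoplasmic reticulum. Ch25h was at 1.15, 1.71 and 1.56 CPM in the Tyrphostin libraries of batch 1 and at 2.06, 2.43 and 0.560 CPM in those of batch 2. Control libraries ran from 8.37 to 15.1 CPM in batch 1 (median 13.3) and from 5.12 to 44.3 CPM in batch 2 (median 16.4). All 6 Tyrphostin libraries were below all Control libraries, as 1% of all genes were, and the log2 fold change was -3.24 ± 0.41 (edgeR adjusted p = 1.82e-05). Its lowest library, Tyrphostin 6, held 3 counts. Exons of Ch25h overlap those of Gm26902 on the opposite strand over 11.5% of their length, so its reads are uncertain.

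Lpcat3, an acyltransferase of phospholipids and a known LXR target, also fell. It was at 177, 104 and 152 CPM in the Tyrphostin libraries of batch 1 and at 180, 219 and 176 CPM in batch 2, against 273 to 439 and 345 to 611 CPM in Control. All 6 Tyrphostin libraries lay below all Control libraries, and the log2 fold change was -1.26 ± 0.17 (edgeR adjusted p = 3.70e-05), at -1.25 in batch 1 and -1.26 in batch 2. Its exons overlap those of Emg1 on the opposite strand over 10.2% of their length. Of the other LXR targets on this list, Abca2 was at 0.04 and Smpdl3a at 0.21 and neither passed, and Mylip, Arl4c and Abcg4 were under the filter; the member Abca1, also an LXR target, was at -0.86.

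Elovl6, a fatty acid elongase and SREBP1 target, was at 32.1, 25.6 and 29.7 CPM in the Tyrphostin libraries of batch 1 and at 21.0, 24.3 and 24.4 CPM in batch 2, against 8.75 to 20.3 and 9.12 to 13.4 CPM in Control. All 6 Tyrphostin libraries lay above all Control libraries, and its log2 fold change was 1.12 ± 0.17 (edgeR adjusted p = 0.000132). Of the 10 fatty acid genes, 7 had a positive value and Elovl6 alone passed, while Acly was at -0.52 ± 0.18 (adjusted p = 0.0692). Rnf139, a sterol-regulated ubiquitin ligase, was at 24.2, 32.6 and 29.5 CPM in batch 1 and at 27.8, 18.9 and 32.1 CPM in batch 2, against 19.1 to 26.3 and 6.82 to 20.4 CPM in Control. Its log2 fold change was 0.67 ± 0.19 (edgeR adjusted p = 0.0254). The call was lost without Tyrphostin 2, 4 or 6 (adjusted p 0.0524 to 0.0920). It was also lost in 4 of the 11 other settings run (adjusted p up to 0.254, with a replicate block that crosses batches). Rnf139 exons overlap those of Tatdn1 on the opposite strand over 22.3% of their length. All 8 genes of SREBP maturation and sterol-regulated degradation had a positive value, with Rnf139 alone past the threshold and Mbtps1, the site-1 protease, at 0.45 ± 0.15 (adjusted p = 0.0530). Of the 9 tested genes of sterol transport and storage and the 10 of the isoprenoid branch, 0 passed.

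**Figure D5:**
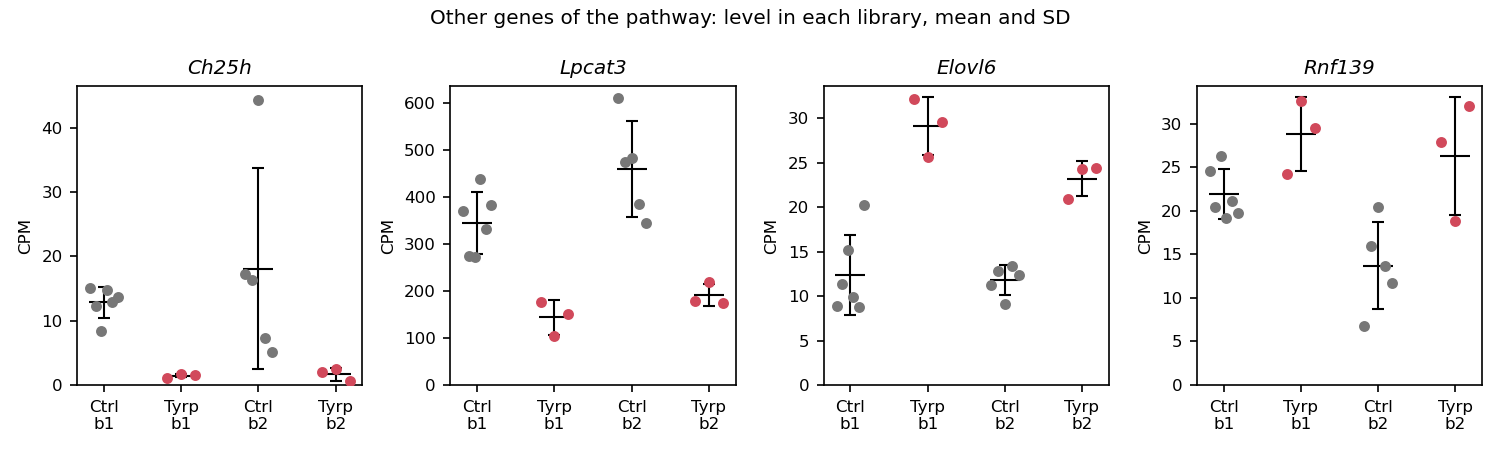
Level in CPM of the 4 other pathway genes past the threshold in every library (points), with mean and SD (bars), for Control (Ctrl) and Tyrphostin (Tyrp) libraries of batch 1 (b1) and batch 2 (b2). Ch25h and Lpcat3 are lower and Elovl6 is higher in all 6 Tyrphostin libraries than in any Control library, while Rnf139 overlaps.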

How the data were processed

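The deposited table holds raw counts per gene symbol for 17 libraries, made by the authors, with 25198 genes, of which 3576 held no count. Reads were processed with STAR and HTSeq on GRCm38, per the submitters' processing notes; versions, annotation and strand setting are not given in the sources used here. Members and gene lists were chosen with earlier results of these data known.

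The treatment effect came from the robust quasi-likelihood F test of edgeR 4.0.16 (R 4.3.3), after filterByExpr and TMM scaling and with batch as a term, with Benjamini-Hochberg adjustment over all genes tested and a threshold of 0.05. Standard errors were computed as log2 fold change over the root of F. Further fits took each batch alone, the interaction of treatment and batch, and the Control libraries of both batches. Levels are CPM on TMM-scaled totals. DESeq2 1.42.0, limma-voom (limma 3.58.1), other scalings, filters and covariates, Control libraries summed by set, and omission of each library were alternatives; summing by set within a batch, 2 fits over 6 libraries of batch 1 and 1 other gene filter were added after seeing the data. The code was tested on simulated counts. In 31 of 31 library pairs within a group and batch, counts differed beyond sampling noise (chi-square over its degrees of freedom, 11.8 to 84.1). Floors reflect counting error alone, as PCR duplicates cannot be removed without molecular identifiers.

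Members given library by library were those called in any treatment fit, the next lowest p until 10, and Srebf1, Srebf2, Insig1, Insig2, Scap, Abca1, Abcg1, Stard4 and Hmgcs1; of other pathway genes, those called. Loci, exon lengths and overlaps came from GENCODE M21 (GRCm38), and promoters from RefSeq.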

Additional observations from a re-analysis of the deposited data

Results flagged for a closer look

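A total of 5 single-library values stood apart from the rest of their group by Dixon's criterion, out of 108 groups searched, of which chance alone gives about 5. Acat2 was at 312 CPM in Tyrphostin 1, against 119 to 181 CPM in the other Tyrphostin libraries. Mvk was at 14.3 CPM in Tyrphostin 1, against 7.61 to 9.79 CPM in the others. Insig2 was at 20.3 CPM in Control 6, the library of lowest total, against 36.3 to 45.4 CPM in the other Control libraries of batch 1. Npc2 was at 177 CPM in Control 1, against 84.1 to 116 CPM, and Lipa was at 39.6 CPM in Control 1, against 13.4 to 20.8 CPM.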

How the results depend on the processing

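Over both batches, 1018 genes passed, with 2 members higher and 1 lower and a member median of 0.23. Total-count scaling gave 1111 genes, 8 members higher and 0 lower. It moved the median of all genes by 0.15 and the share of calls that were higher from 41.1% to 64.4%. Omitting the batch term gave 619 genes and 1 member higher. The log10 total count as covariate gave 678 genes, 1 member higher and 0 lower. Control libraries summed by set gave 708 of 10251 genes, 1 member higher and 0 lower. An adjusted p under 0.01 gave 478 genes, 1 higher and 0 lower. Leaving out each library gave 708 (without Tyrphostin 1) to 1314 genes (without Control 7), 1 to 6 members higher, 0 to 1 lower and a median of 0.14 to 0.32. Within batch 1, 8 members passed, where 6.73% of all genes did. With 1 library left out, 5 to 10 passed (5 without Tyrphostin 1), where 4.03% to 7.28% of genes did. With sets summed, 2 passed, where 2.25% of genes did. Within batch 2, 0 passed, where 0.621% of genes did. Dhcr7 alone passed with total counts (0.56% of genes), no filter (1.13%) or DESeq2 (3.08%), or without Control 7 (2.26%). With 1 library left out, 0 to 1 passed, where 0.108% to 2.26% of genes did. The interaction had 0 members, and 1 (Acat2) without a filter, where 0.365% of genes passed. Between Control batches, 9 members passed, where 14% of all genes did. This became 14 members with total counts (16.6% of genes), 16 without a filter (5.85%) and 1 with sets summed (1.09%). The cause of these changes was not tested.

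Members near 0 changed sign. With total counts, Tm7sf2 was at 0.0932, Srebf2 at 0.037, Npc2 at 0.14, Lipa at 0.12 and Nr1h2 at 0.030. Upper-quartile scaling gave Npc2 0.012 and Lipa 0.0019, and no filter gave Npc2 0.030 and Lipa 0.011. Lss was at -0.088 without the batch term; Sqle was at -0.030 and Srebf1 at -0.040 with the depth covariate; and Npc2 was at 0.037 with sets summed. With 1 library left out, Ebp ran from -0.019 to 0.44, Lipa from -0.20 to 0.12, Lss from -0.11 to 0.21, Npc2 from -0.15 to 0.096, Srebf1 from -0.049 to 0.076 and Tm7sf2 from -0.24 to 0.14.

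Control and Tyrphostin libraries share the numbers 1 to 6, but numbers 4 to 6 cross batches, and no label says that a number marks a shared animal or day. Correlations of the deviations of same-numbered libraries from their group and batch means were 0.35, 0.078, 0.060, 0.11, 0.036 and 0.12, and were not all over 0.1, so they were treated as unpaired; among numbers 1 to 3 in batch 1, each library correlated best with its own number, a hint from the data and not the design, but Tyrphostin 2 and 3 correlated more with Control 4 and 6 (0.13 and 0.22). From group means alone, which hold the batch difference, they were 0.50, 0.33, 0.40, 0.01, -0.14 and -0.072. Within batch 1, a replicate block over Control 1 to 3 and Tyrphostin 1 to 3 gave 848 genes and 9 members, and the same libraries without it 389 genes and 5 members. A replicate block over Control 1 to 6 and Tyrphostin 1 to 6 gave 1678 of 9133 genes, 16 members higher and a median of 0.60. Tm7sf2 was then at 0.32, Npc2 at 0.20, Nr1h2 at 0.066 and Soat1 at 0.28. This block set Tyrphostin 4 to 6 of batch 2 beside Control 4 to 6 of batch 1 and left out every Control library of batch 2. Its treatment term therefore also holds the batch difference, and these values do not measure treatment alone.

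Precision is limited by 6 Tyrphostin libraries and, for Abcg1, Nr1h3, Mvk, Fdps and Ch25h, by low counts.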
